A study of Mus musculus with 4 samples.

Results

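10 genes of scavenging and efferocytosis were followed in RAW264.7, a long-established line of mouse macrophages. They were Gas6, Pros1, Axl, Mertk, Stab1, Cd36, Scarb1, Msr1, Marco and Mrc1, chosen by symbol, and all 10 were found among the 14435 genes of the expression table. RNA was sequenced from 4 libraries, 2 of cells given a nonspecific control shRNA (Control) and 2 of cells given an shRNA against Mettl3 (shMettl3), the catalytic subunit of the enzyme that methylates adenosine in RNA (the m6A mark). All 4 were exposed to lipopolysaccharide of Escherichia coli for 12 hours, so every difference is between cells that share this treatment. The labels give neither the dose nor whether the cells were a pool or a clone, nor whether replicates were independent cultures, so the p-values reflect the spread of these libraries, which may be technical. The treatment field of shMettl3 replicate 2 reads METTL4, while its title and the design text read METTL3.

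Efferocytosis is the uptake of dying cells. Such cells expose the lipid phosphatidylserine, which macrophages recognise either directly, for example through stabilin-1 (Stab1), or through the soluble bridging proteins Gas6 and protein S (Pros1), which bind the receptor tyrosine kinases Tyro3, Axl and Mertk (the TAM receptors). Scavenger receptors bind modified lipoproteins, microbial surfaces and other polyanionic or lipid ligands. Class A members (Msr1, Marco) carry collagen-like stalks, class B members (Cd36, Scarb1) span the membrane at both ends, and the mannose receptor Mrc1 is a C-type lectin that clears glycoproteins.

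Mettl3 was at 514 and 496 counts in Control and at 194 and 195 counts in shMettl3 (log2 fold change -1.42, SE 0.10), rounded from estimated counts that are not all whole numbers. Total counts lay between 16342313 and 17193639. All 11 macrophage markers examined were present in every library, with a summed TPM (transcripts per 1000000) of 19187 to 19810 in Control and 13606 to 13658 in shMettl3, and 8 of them were lower and 1 higher in the test described below. Defining markers of fibroblasts, endothelium and lymphocytes were at or near 0. The summed TPM of the fibroblast list was at most 0.05 in Control and 0.31 to 1.10 in shMettl3. There, replicate 1 held 17 counts of Col1a1, 15 of Col1a2 and 15 of Col3a1. That of the endothelial list was at most 0.41 in any library, and that of the lymphocyte list at most 0.16. The neutrophil and mast cell list summed to 36.4 to 39.4, nearly all of it S100a8, and the dendritic cell list to between 0.63 and 1.0.

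Upstream sequence was examined for the members in the RefSeq promoter table (build GRCm38.p6, a later build than the mm9 named in the submitters' processing notes), which matched 8 of the 10. The 250 bases before the annotated start are shown for the 3 members with the largest falls that passed the test, the ligands Gas6 and Pros1 and the receptor Stab1, and for Cd36, whose level moved least. Capitals mark the GC box core GGGCGG and the purine-rich core GAGGAA bound by the macrophage factor PU.1, each searched on both strands, where overlapping matches count separately. The Gas6 window is chr8:13494536-13494785, minus strand, that of Pros1 chr16:62854057-62854306, plus strand, that of Stab1 chr14:31168642-31168891, minus strand, and that of Cd36 chr5:17835897-17836146, minus strand. All are written 5′ to 3′ in the direction of the gene.
Gas6: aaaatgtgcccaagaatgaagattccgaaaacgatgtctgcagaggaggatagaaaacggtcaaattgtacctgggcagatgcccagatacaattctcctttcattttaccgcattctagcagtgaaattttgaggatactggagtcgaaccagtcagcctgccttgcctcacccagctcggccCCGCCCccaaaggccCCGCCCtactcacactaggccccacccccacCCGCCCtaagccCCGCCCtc
Pros1: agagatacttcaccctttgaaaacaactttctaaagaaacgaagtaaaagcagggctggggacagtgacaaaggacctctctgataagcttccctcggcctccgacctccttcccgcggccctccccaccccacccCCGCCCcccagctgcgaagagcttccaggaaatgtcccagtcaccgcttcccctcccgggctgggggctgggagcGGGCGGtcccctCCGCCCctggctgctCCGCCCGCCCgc
Stab1: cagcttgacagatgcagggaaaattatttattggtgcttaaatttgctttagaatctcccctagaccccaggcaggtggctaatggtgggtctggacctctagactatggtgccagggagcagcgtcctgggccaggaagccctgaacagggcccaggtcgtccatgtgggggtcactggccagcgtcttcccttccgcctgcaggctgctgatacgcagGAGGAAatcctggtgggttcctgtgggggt
Cd36: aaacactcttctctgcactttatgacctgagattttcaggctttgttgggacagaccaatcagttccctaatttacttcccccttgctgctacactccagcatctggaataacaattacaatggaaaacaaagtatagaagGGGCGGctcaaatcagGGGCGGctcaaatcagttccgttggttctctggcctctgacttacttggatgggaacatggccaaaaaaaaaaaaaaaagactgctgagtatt
The Gas6 window held 4 GC box cores and the Pros1 window 5, and 4.09% of the 32851 promoter windows of this length held at least 4. Cd36 held 2 and Stab1 none, while Stab1 held 1 GAGGAA, 30 bases before the start. Over the 8 members searched, 6 had at least 1 GGGCGG, against 32.7% of all windows, and 4 (Axl, Stab1, Marco and Mrc1) had a GAGGAA, against 23.2%. All windows were not limited to tested genes or matched for base composition. The windows shown were 54.8% (Gas6), 64.4% (Pros1), 57.2% (Stab1) and 43.2% (Cd36) G or C, against a median of 52.4%. No member's window held the AP-1 site TGANTCA, which 6.75% of windows hold, or the TATA box TATAAA, which 12.4% hold. These are matches of letters and say nothing of binding.

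The m6A mark was not measured. The sequence most often methylated by the Mettl3 enzyme has the core GGACU, written GGACT in DNA, and it was counted in the longest protein-coding transcript of each gene in GENCODE M21. Gas6 had 0 in 2548 bases and Pros1 had 1 in 3303 bases, or 0.303 per kilobase. The median of the 10851 tested genes with a transcript was 1.04 per kilobase, and 7.43% of them had none. The other 8 members had between 0.938 per kilobase (Axl) and 1.68 per kilobase (Mrc1, 9 sites). The methylated sequence is broader than this core, so a transcript without it may still carry sites.

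Levels differed widely among the members. On the deposited TPM scale, which corrects for gene length, Msr1 ranked first in all 4 libraries (422 and 408 in Control, 366 and 379 in shMettl3) and Cd36 second (366 and 296, then 351 and 370). The TPM levels of these neighbours did not overlap in Control and overlapped in shMettl3. Cd36 and Msr1 together made up 90.2% and 89.0% of the summed TPM of the 10 members in Control and 92.4% and 92.8% in shMettl3. Scarb1 followed at 51.6 and 60.3 TPM in Control and 45.4 and 46.2 in shMettl3, then Gas6, Stab1 and Pros1, whose TPM ranges did not overlap with each other within either group. Axl and Mrc1 lay at 1.10 TPM or below, with overlapping levels in Control (0.79 and 0.44 for Axl, 0.89 and 0.48 for Mrc1), and with Axl above Mrc1 in shMettl3 (1.10 and 0.96 against 0.48 and 0.26). Mertk and Marco were at or below 0.05 TPM in every library.

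**Figure D1:**
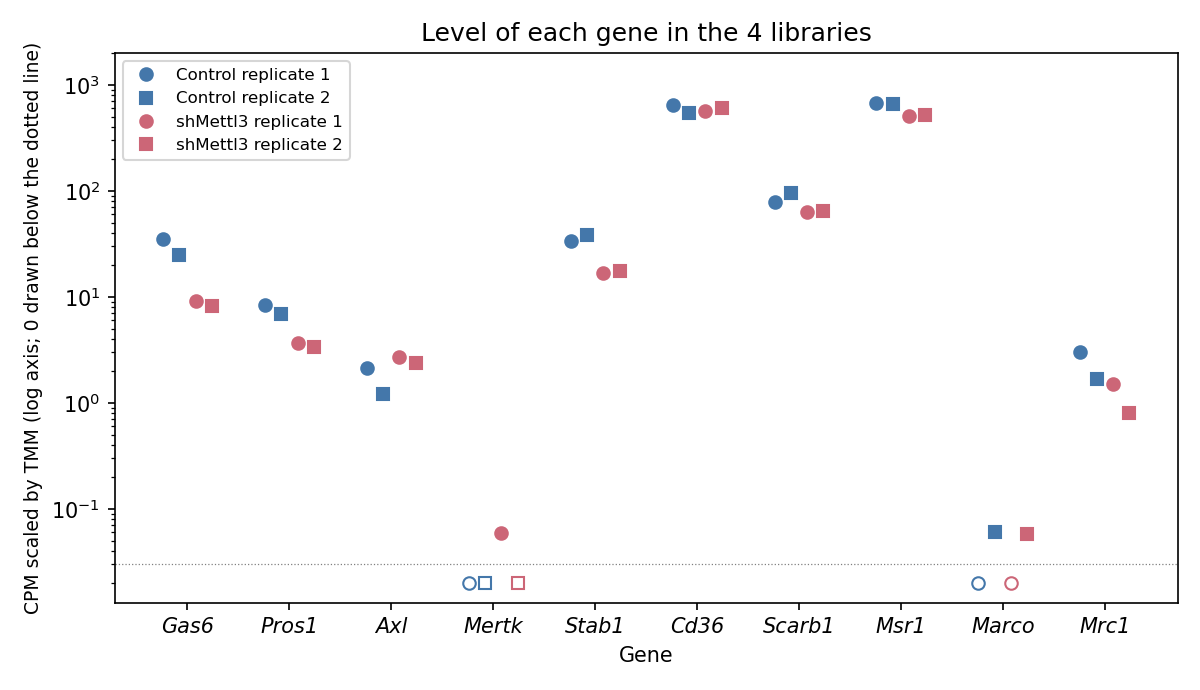
Each point is 1 library's level in counts per 1000000 scaled by the TMM factors (CPM, log axis), with Control in blue and shMettl3 in red, and circles and squares for replicates 1 and 2. Open symbols below the dotted line are libraries with 0 counts. Gas6, Pros1, Stab1, Scarb1, Msr1 and Mrc1 lay lower in both shMettl3 libraries, Axl lay higher, Cd36 overlapped, and Mertk and Marco had at most 1 count.

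Differences between the groups were tested with edgeR's quasi-likelihood test, with p-values adjusted by Benjamini-Hochberg over 11035 genes and called below 0.05. 8 of the 10 members were tested, each with at least 14 counts in every library, and Mertk and Marco were below the filter on low counts. 5 members fell (Gas6, Pros1, Stab1, Scarb1 and Msr1), none rose, and Axl, Cd36 and Mrc1 were not called. The members were chosen with earlier results of these data known, so their counts are a description and not independent evidence. Of all tested genes 43.7% were called, 22.3% lower and 21.4% higher. In 6 of the 8 tested members both shMettl3 libraries lay below both Control libraries, as in 36.3% of all tested genes, and in 1 (Axl) they lay above, as in 37.1%, which makes 73.4% of genes whose groups did not overlap. Calls of lower genes also depended on abundance: 19.3% of genes with a mean of 5 to 50 CPM were called lower, a range that holds Gas6, Pros1 and Stab1, 25.9% of those with 50 to 300 CPM (Scarb1) and 42.9% of those over 300 CPM (Msr1 and Cd36). The median log2 fold change of the 8 tested members was -0.74, and that of all tested genes was 0.01. Over the alternative settings, which tested 6 to 10 of the members, their median ranged from -0.75 to -0.28. The latter was with log2(FPKM + 1), where the added 1 shrinks the changes of low genes. With library size as the scaling 3266 genes were called higher and 1832 lower, and with log2(TPM + 1) 3536 and 1516, against 2360 and 2466 here, while 5 and 4 members were called lower and none higher. In bulk RNA, fewer cells that express a gene and less RNA per cell cannot be told apart, and loss of Mettl3 and other differences between the cells given each shRNA cannot be told apart either.

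Both bridging ligands fell, and Gas6 had the lowest log2 fold change of the tested members in each of the fits run. Gas6 (Entrez gene 14456), a vitamin K-dependent protein that activates all TAM receptors, had 580 and 408 counts in Control and 152 and 141 in shMettl3, or 34.9 and 24.6 CPM against 9.04 and 8.10 CPM. Both shMettl3 libraries lay well under both Control libraries, although the Control libraries differed between themselves. The log2 fold change was -1.79 (SE 0.19, adjusted p = 2.51e-04), a level of 28.8% of Control with a 95% interval of the fold from 0.213 to 0.391, and 1.66% of tested genes had a lower log2 fold change. Pros1 (Entrez gene 19128), the anticoagulant protein S and a ligand of Mertk and Tyro3, had 140 and 113 counts against 62 and 58, or 8.43 and 6.81 CPM against 3.69 and 3.33 CPM. Its groups did not overlap, and the log2 fold change amounted to -1.12 (SE 0.19, adjusted p = 6.15e-04), with 4.21% of tested genes lower. Within a library, the ratio of Gas6 to Pros1 in TPM was 5.34 and 4.66 in Control and 3.15 and 3.14 in shMettl3, so Gas6 stayed the more abundant ligand mRNA in each library.

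The TAM receptors were scarce in these cells. Axl (Entrez gene 26362), the TAM receptor that prefers Gas6, had 35 and 20 counts in Control and 45 and 41 in shMettl3, or 2.11 and 1.21 CPM against 2.68 and 2.36 CPM. Both shMettl3 libraries lay above both Control libraries, but the log2 fold change of 0.60 (SE 0.30, adjusted p = 0.125) was not called. Its 95% interval, from -0.05 to 1.26, covers no change as well as a fold of 2.39. Without Control replicate 1, the higher of the Control libraries, the log2 fold change of Axl was 1.05, and without Control replicate 2 it was 0.25. With 1 Control library left, the spread within groups comes from the shMettl3 pair only, so the calls of these fits are not given. Mertk (Entrez gene 17289), the TAM receptor most tied to efferocytosis in tissue macrophages, had 0 counts in both Control libraries and 1 and 0 in shMettl3. A count of 0 allows up to 3 counts, or 0.181 CPM in a Control library, by counting error only, so a difference in Mertk was not detectable at this depth. The third receptor, Tyro3, had 7 and 5 counts in Control and 11 and 12 in shMettl3 (0.88 on the log2 scale, SE 0.46, adjusted p = 0.145), and it too was not called. In TPM, the ratio of Gas6 to Axl was 27.7 and 34.0 in Control and 5.61 and 5.76 in shMettl3.

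Stab1 (Entrez gene 192187), a large multidomain receptor that binds phosphatidylserine and clears modified lipoproteins and matrix fragments, had 557 and 638 counts in Control and 282 and 305 in shMettl3, or 33.5 and 38.4 CPM against 16.8 and 17.5 CPM. The libraries of each group lay close together and far from the other group. The log2 fold change was -1.07 (SE 0.10, adjusted p = 1.37e-05), a level of 47.7% of Control. Exons of Stab1 share 112 bases with Nt5dc2 on the opposite strand in GENCODE M21, and the protocols describe no step that marks strand. Nt5dc2 itself was lower by less (log2 fold change -0.37, adjusted p = 0.0319). Gas6 exons share 34 bases with Tmem255b, and no other member shares exonic bases with another gene there. The counts of all 10 members were whole numbers, as when no reads were divided between related genes.

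The class B receptors differed in what they showed. Cd36 (Entrez gene 12491), which takes up fatty acids and oxidised lipoproteins and assists the uptake of apoptotic cells, had 10758 and 8917 counts in Control and 9588 and 10462 in shMettl3, or 647 and 537 CPM against 570 and 601 CPM. Both shMettl3 libraries lay between the Control libraries. The log2 fold change of -0.02 was not called (SE 0.09, adjusted p = 0.902), with a 95% interval of the fold from 0.86 to 1.14, and the sign was positive when scaled by library size (0.08), with log2(FPKM + 1) (0.07) and with log2(TPM + 1) (0.13), and without Control replicate 1 (0.12) or shMettl3 replicate 1 (0.02), always uncalled. Scarb1 (Entrez gene 20778), the high-density lipoprotein receptor SR-BI, which also binds phosphatidylserine, had 1317 and 1589 counts against 1072 and 1133, or 79.3 and 95.7 CPM against 63.8 and 65.1 CPM. Its groups did not overlap, and it fell by 0.44 on the log2 scale (SE 0.09, adjusted p = 0.00295), to 73.7% of Control. Whether Scarb1 and Cd36 differed in their response was not tested.

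Among the class A receptors, Msr1 (Entrez gene 20288), which binds acetylated and oxidised low-density lipoprotein and bacterial surfaces, had 11261 and 11070 counts in Control and 8623 and 9122 in shMettl3, or 678 and 667 CPM against 513 and 524 CPM. Replicates agreed closely and the groups did not overlap. The fall was small, 0.37 on the log2 scale (SE 0.07, adjusted p = 0.00106), to 77.1% of Control, and 35.7% of tested genes had a larger log2 fold change in one direction or the other. Its call was lost on the authors' TPM values (log2 fold change -0.16, adjusted p = 0.0831 with limma and a pseudocount of 1) and also with a pseudocount of 0.1 (-0.16, adjusted p = 0.0819). On the log2(TPM + 1) scale the median of all tested genes was 0.14. Marco (Entrez gene 17167), a receptor for bacteria and particles, had 0 and 1 counts in Control and the same in shMettl3, so it was not tested. Mrc1 (Entrez gene 17533), the mannose receptor and a common marker of alternatively activated macrophages, had 50 and 28 counts against 25 and 14, or 3.01 and 1.69 CPM against 1.49 and 0.805 CPM. Its groups did not overlap, but with a spread this wide the log2 fold change of -1.04 (SE 0.38, adjusted p = 0.0509) missed the threshold. Mrc1 was called with no low counts filtered (-1.05, adjusted p = 0.0315). With 1 library left out its log2 fold change ranged from -1.54 without shMettl3 replicate 1 to -0.57 without Control replicate 1.

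**Figure D2:**
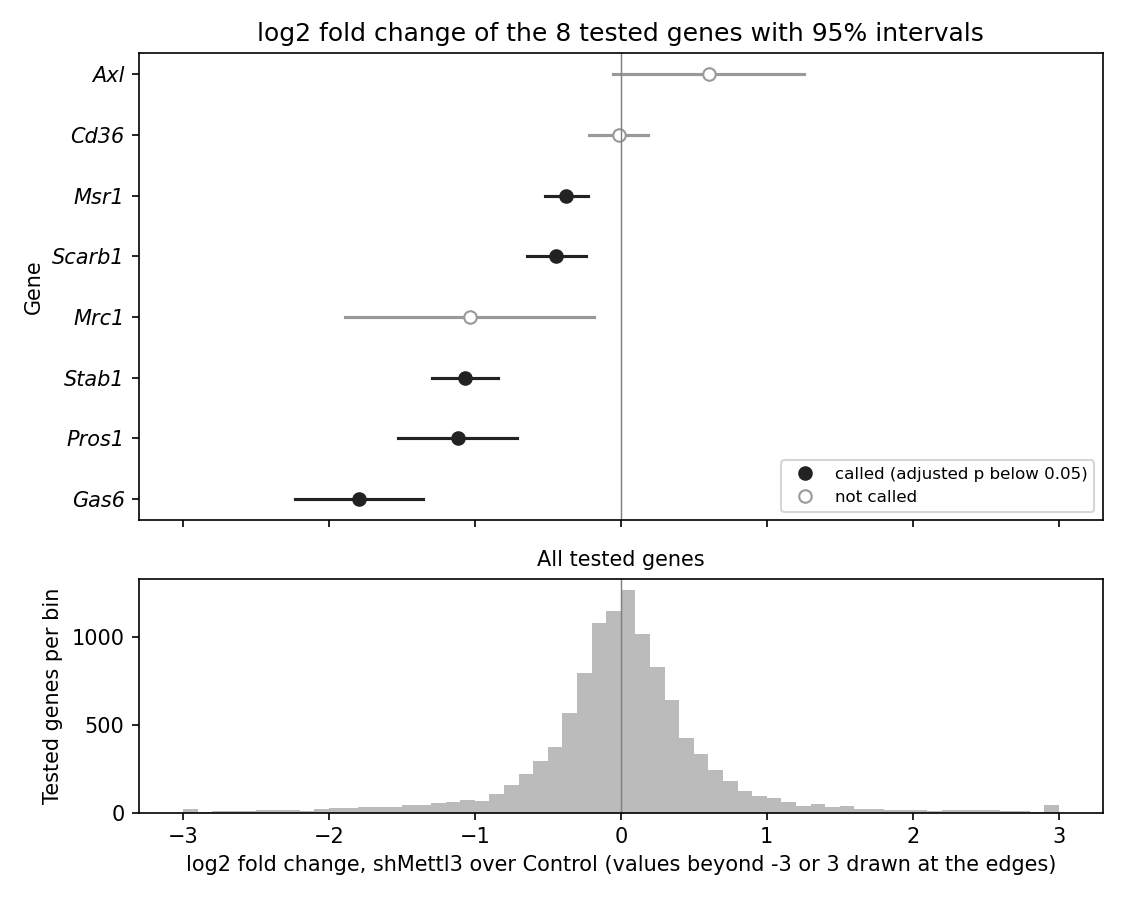
The upper panel gives the log2 fold change of shMettl3 over Control for the 8 tested members, with 95% intervals from the edgeR fit and filled points where the adjusted p was below 0.05. The lower panel is a histogram of all 11035 tested genes on the same axis. Gas6 at -1.79 lay in the lower tail of that distribution, while Cd36 at -0.02 lay at its centre.

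The direction of the 5 falls held under all 14 alternative settings. Gas6 ranged from -2.03 to -1.46 on the log2 scale, Pros1 from -1.26 to -0.63, Stab1 from -1.17 to -0.74 and Scarb1 from -0.58 to -0.28. These 4 were called in each setting that kept all 4 libraries. Without shMettl3 replicate 2, the library whose label names METTL4 in 1 field, Gas6 was at -1.72 and Stab1 at -1.10.

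**Figure D3:**
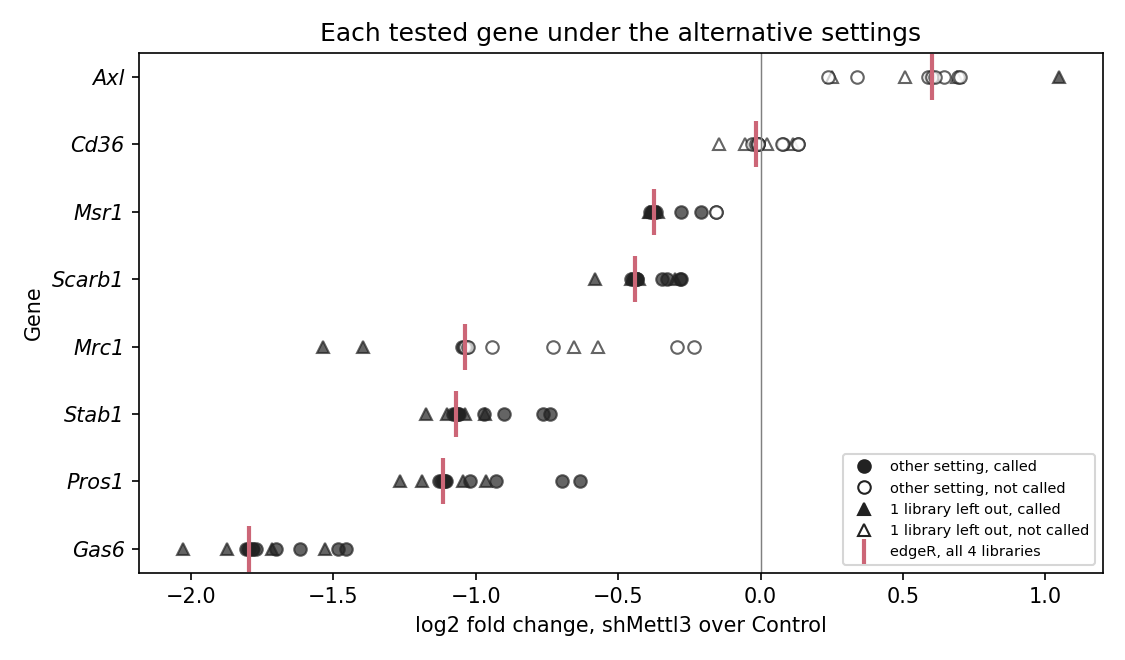
Each row is a tested member, and each symbol its log2 fold change under 1 of the 14 alternative settings, with triangles for fits that left out 1 library, circles for other settings and filled symbols where it was called. The red bar is the edgeR fit of all 4 libraries. Gas6, Pros1, Stab1 and Scarb1 were called in each setting that kept all 4 libraries, and Cd36 lay on both sides of 0. For triangles, the spread within groups comes from the pair of the other group only.

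The wider pathway was described through 10 lists, also chosen with earlier results of these data known. They held 146 genes, of which 119 were tested. 54 of these 119 fell and 20 rose, beside the 22.3% and 21.4% of all tested genes, and their median log2 fold change was -0.20. With log2(TPM + 1) 41 fell and 29 rose, and the median was -0.03, the value nearest to 0 among the settings. Among all tested genes the share called lower was 42.9% over 300 CPM, and the lists were not matched for abundance. Among other bridging molecules and opsonins, 3 of 7 tested genes fell and 3 rose. Lgals3, or galectin-3, which opsonises dying cells, fell from 1534 to 844 CPM, while Calr, or calreticulin, an eat-me signal when exposed on dying cells, rose from 2078 to 2668 CPM. Edil3, an integrin ligand that bridges to phosphatidylserine, rose from 12.9 to 26.6 CPM, by 1.05 on the log2 scale (SE 0.27, adjusted p = 0.0395), but its adjusted p was 0.102 when no low counts were filtered. With 1 library left out, its log2 fold change ranged from 0.72 to 1.47. Mfge8, which links phosphatidylserine to integrins, rose slightly, from 34.6 to 41.3 CPM (0.26), and was not called in DESeq2. It lay between 0.18 and 0.33 with 1 library left out. The C1q genes C1qa, C1qb and C1qc had 0 counts in Control and at most 4 in a shMettl3 library. The median of the bridging list was -0.25, and it ranged from -0.28 to 0.30 over the settings.

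Other receptors of the same kinds mostly fell, where 22.3% of all tested genes were called lower and 21.4% higher. Of 9 tested phosphatidylserine and engulfment receptors 5 fell and 1 rose (median -0.27), led by Cd300a, an inhibitory receptor for phosphatidylserine and phosphatidylethanolamine, from 105 to 40.2 CPM, Cd300lb, an activating relative, from 181 to 81.7 CPM, and Lrp1, an endocytic receptor for many ligands that also takes part in apoptotic cell uptake, from 1025 to 469 CPM. Of 8 tested scavenger receptors outside the 10 members 5 fell and 1 rose (median -0.72). Scarf1, which binds modified lipoproteins, fell from 20.1 to 7.40 CPM and Cxcl16, whose membrane form binds oxidised lipoprotein, from 146 to 71.1 CPM, the latter with counts that are not all whole numbers. Lrp1 stands in both lists. As stated above, 8 of 11 macrophage markers were lower in the same libraries, and their part in these falls was not tested. In the list of lipoprotein and lipid uptake partners 6 of 10 fell and 2 rose (median -0.47), with Lpl, the lipoprotein lipase, at -1.89, the cholesterol exporter Abca1 at -1.36 and Lrp1 at -1.13.

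Downstream of the receptors, 10 of 19 engulfment signalling genes fell and 1 rose (median -0.22), beside 22.3% and 21.4% of all tested genes. Src, a tyrosine kinase active at the forming phagocytic cup, fell from 167 to 56.6 CPM (log2 fold change -1.56), and the Rac activators Dock1 (-0.62) and Elmo2 (-0.61), which work as a complex, fell less. In Control these 2 were at 31.0 and 37.8 CPM. Their more abundant relatives, looked up after their values were seen, were not called: Dock2 went from 131 to 149 CPM (0.18) and Elmo1 from 80.5 to 85.1 CPM (0.08). In phagosome maturation and corpse digestion 10 of 24 fell and 4 rose (median -0.18). The largest falls there among genes with at least 10 CPM in the higher group were in Cybb, the catalytic subunit of the phagocyte NADPH oxidase, from 1561 to 666 CPM, Lipa, the lysosomal acid lipase, from 585 to 343 CPM, and Dnase2a, which digests the DNA of engulfed cells, from 66.0 to 40.1 CPM. Find-me signals, their receptors and lipid scramblases moved in both directions, 4 lower and 5 higher of 13 (median -0.03). S1pr1, a receptor for sphingosine-1-phosphate, rose from 4.58 to 12.0 CPM, and Gpr132, a receptor implicated in attraction by lysophosphatidylcholine, from 16.3 to 40.6 CPM, while Panx1, a channel that releases nucleotides from dying cells, fell from 18.3 to 8.69 CPM.

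In the do-not-eat-me list, mRNA of both Cd47 and Sirpa changed. These libraries hold RNA only, so neither surface protein nor engulfment was measured. Cd47, the signal that restrains phagocytosis, had 1633 and 1502 counts in Control and 2761 and 2631 in shMettl3, and rose from 94.4 to 158 CPM (0.74, SE 0.08). Its receptor Sirpa fell from 584 to 411 CPM (-0.51) and the phosphatase Ptpn6, which Sirpa recruits, from 335 to 213 CPM (-0.65). In that list 4 of 7 fell and 2 rose (median -0.22), beside 22.3% and 21.4% of all tested genes. Of 12 tested nuclear receptors and regulators 4 fell and 1 rose (median -0.15). Rxra, the partner of LXR and PPAR receptors, fell from 24.8 to 7.20 CPM (-1.78) and Klf2 rose from 13.6 to 29.2 CPM. Ppard fell from 50.5 to 16.1 CPM (-1.65, adjusted p = 0.0221), but its adjusted p was 0.0668 when no low counts were filtered. With 1 library left out, its log2 fold change ranged from -1.96 to -1.28. In the list of TAM receptor shedding and signalling 5 of 13 fell and none rose (median -0.11). Vkorc1, which recycles the vitamin K needed to activate Gas6 and Pros1, fell from 18.3 to 11.0 CPM (-0.74), Socs3 by 0.48 and Akt1 by 0.36. Of the sheddases that cut Axl and Mertk from the surface, Adam10 fell slightly, from 93.1 to 76.6 CPM (-0.28). It lost its call with library size as the scaling, with log2(FPKM + 1) and with log2(TPM + 1). With 1 library left out it lay between -0.385 and -0.181. Adam17 stood at 210 and 209 CPM and was not called (adjusted p = 0.988).

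**Figure D4:**
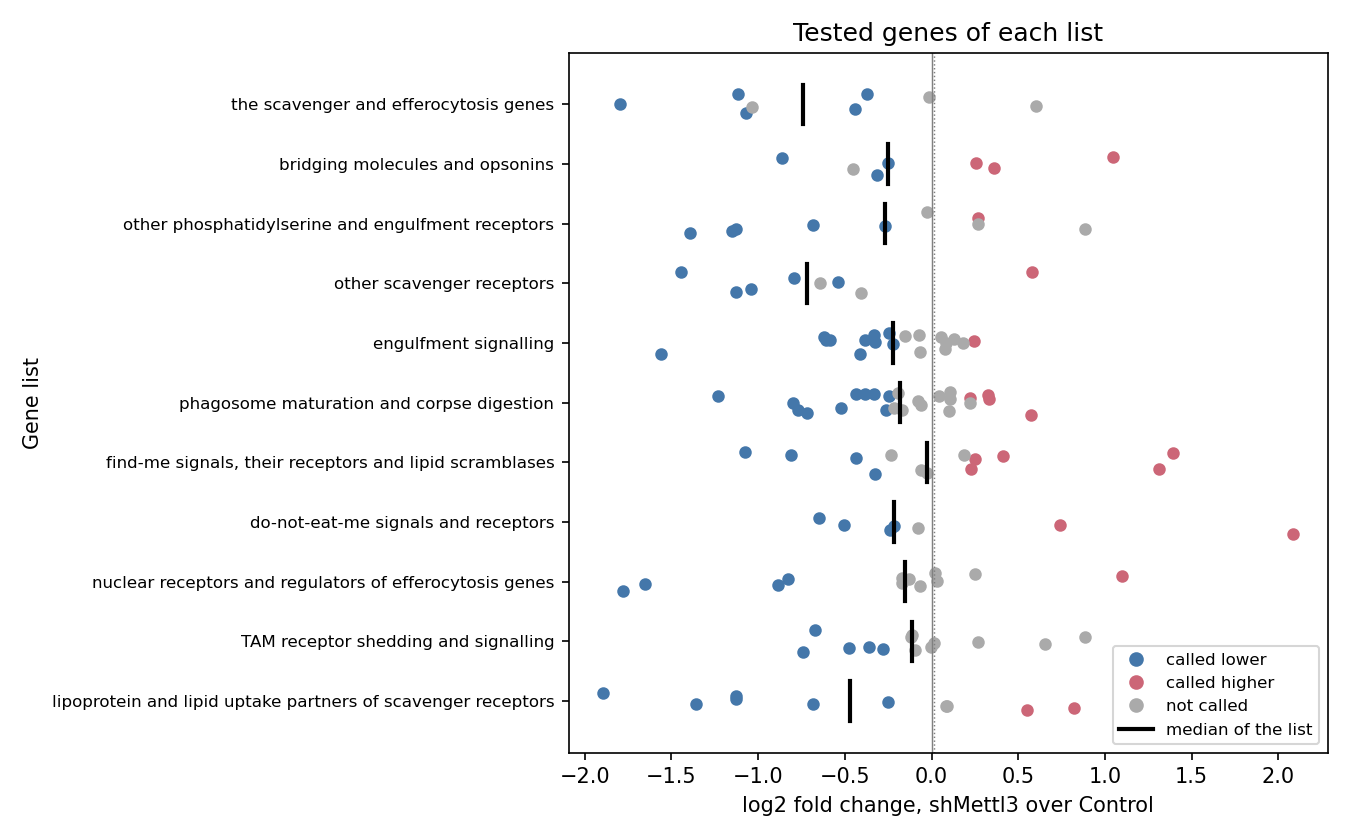
Each point is the log2 fold change, shMettl3 over Control, of 1 tested gene in the list named at the left, in blue where called lower, red where called higher and grey where not called, and black bars are list medians. The medians of the 10 members and of all lists lay below 0 in the edgeR fit, from -0.74 for the members to -0.03 for the find-me list.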

How the data were processed

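RNA of 4 libraries was sequenced as single-end reads of 50 bases from full-length, poly(A)-primed, PCR-amplified cDNA, per the labels' protocols, which name no molecular identifiers and no step that marks strand. The submitters' processing notes name HISAT2 2.0.4, Bowtie2 2.2.5, RSEM 1.2.12 and mm9, with no role or order. The gene annotation is not given in the sources used here. Per gene and library, the authors deposited estimated counts, FPKM and TPM values, and the counts were not whole for 1808 of 14435 genes. The table has 0 columns of other samples.

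Counts were rounded and tested with edgeR 4.0.16 in R 4.3.3 (robust quasi-likelihood fit, TMM factors of 0.966 to 1.04, filterByExpr with a minimum count of 10 and a total of 15), which left 11035 genes. Standard errors divide the log2 fold change by the square root of F. The 95% intervals use the fit's total degrees of freedom, the 2 residual plus those borrowed across genes. The main edgeR fit, but none of the alternatives, was run on simulated data. These held far fewer changed genes than were called here, so that run does not vouch for the calls. DESeq2 1.42.0 and limma 3.58.1 were alternatives. Named genes are the members, Mettl3, up to 3 called, non-overlapping genes per list with at least 10 CPM in the higher group, ranked by size of change, and Tyro3, Adam10, Adam17, Mfge8, Cd47 and Sirpa. The members and lists were chosen with earlier results of these data known. Symbols were matched to the table directly or through RefSeq, where 14335 identifiers matched. A planned comparison of protein sequences was not made.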

Additional observations from a re-analysis of the deposited data

How the results depend on the processing

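14 alternatives were run: DESeq2, library size as the scaling, no filter, a mean CPM of at least 5, edgeR without robust fitting, limma-voom, the replicate block, log2(FPKM + 1), log2(TPM + 1), log2(TPM + 0.1) and each library left out. A fit with a library left out keeps 1 library in that group. Its spread within groups then comes from the other group's pair only, so its calls depend on which pair remains. The replicate block also leaves fewer residual degrees of freedom than the main fit. 5 members were called lower in the main fit, and between 4 and 6 over the alternatives, which tested 6 to 10 members. The number called higher was 0 in each setting that kept all 4 libraries. Over all genes, 4826 were called, 2360 higher and 2466 lower. With 1 library left out the calls ranged from 3070 to 5306, with 1481 to 2561 higher and 1589 to 2745 lower, the lowest counts all without shMettl3 replicate 1. With log2(TPM + 1) 1516 were lower and 3536 higher, with log2(TPM + 0.1) 1509 and 3508, and with library size as the scaling 1832 and 3266. Of the genes of the pathway lists, 20 were called higher, against 13 in DESeq2 29 with log2(TPM + 1) and 12 to 26 with 1 library left out, with 12 without either shMettl3 library, and 54 were called lower, against 39 to 55 over the alternatives. The median over all genes, 0.01 on the log2 scale, was between 0.00 and 0.15 over the alternatives, and the fold changes reported here are relative to the TMM scale. The cause of these shifts was not tested. Of 20 list counts by direction, 7 stayed within 1.5 times under every alternative. Shifts beyond that were found, for example, in genes called higher in engulfment signalling (1, range 0 to 6) and in phagosome maturation (4, range 2 to 7), and in the bridging genes called lower (3, range 1 to 3). 7 of 10 list medians were below 0 in every alternative. Among 41 single genes, 34 kept their call status throughout, and none that was called changed sign. Cd36 (-0.15 to 0.13) and Adam17 (-0.12 to 0.15) took both signs and were never called.

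The labels do not say that equal replicate numbers mark a shared culture, and the deviations of same-numbered libraries from their group means had a correlation of 0.146. With the replicate block 6 members were called lower, because Mrc1 was called (log2 fold change -1.03, adjusted p = 0.0143), and none higher. Members under about 50 counts, Axl, Mrc1, Mertk and Marco, are limited by depth.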

Other observations

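Further genes of the lists were chosen after their values were seen. Cd24a, a ligand of inhibitory Siglec receptors, had 2 and 12 counts in Control and 28 and 34 in shMettl3 (log2 fold change 2.08, SE 0.51, adjusted p = 0.00854), the largest rise among the tested list genes. The class B scavenger receptor relative Scarb2, a lysosomal membrane protein, rose from 49.8 to 74.3 CPM (0.58, adjusted p = 6.49e-04) and was the 1 gene called higher among the other scavenger receptors. Colec12, a class A relative with a collagen-like stalk whose counts were not all whole, fell from 276 to 159 CPM (-0.79). Fabp5, a carrier of fatty acids, fell from 144 to 66.1 CPM (-1.13) and Plin2, which coats lipid droplets, from 328 to 204 CPM (-0.69). The LXR genes Nr1h3 (-0.17, adjusted p = 0.261) and Nr1h2 (-0.17, adjusted p = 0.061) were not called, and Pparg had at most 2 counts in a library. Adjusted p-values are from edgeR's quasi-likelihood test.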
